A study of Sus scrofa with 8 samples.

Results

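The genes described here are the components of MHC class II antigen presentation in the olfactory epithelium (OE) of sows, the chemosensory lining of the nasal cavity. Members were chosen by gene name. They are the invariant chain CD74, the transactivator CIITA, the peptide-binding chains SLA-DRA, SLA-DQA1 and SLA-DQB1, the peptide exchange chains SLA-DMA and SLA-DMB, the exchange modulator SLA-DOA and the protease CTSS, where SLA stands for swine leukocyte antigen, the MHC of the pig. Of these 9 genes, 8 were found among the 22516 genes of the files, 7 by their own symbol and SLA-DRA through its human counterpart HLA-DRA. All 8 had counts and were tested. SLA-DQA1 matched no name and was not analysed here.

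The OE of 4 sows was sequenced as RNA, with 2 sows per group and with left and right OE taken separately. This gave 8 libraries, 4 per group. All sows were crosses of a Landrace sire with a Rongchang dam, were 8 months old and were in estrus. The androstenone treatment group received the commercial boar pheromone spray Boarmate, which mainly contains androstenone, in the nasal cavity 30 min before the tissue was taken, and the control group received no solution, so that androstenone and the act of spraying cannot be told apart. The labels do not say which libraries share a sow. The p-values below take the 8 libraries as replicates, although they come from 2 sows per group.

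MHC class II molecules are pairs of chains that display fragments of swallowed protein to CD4 T cells. The chains are loaded in acid compartments: CD74 plugs the groove while the pair is built, CTSS cuts CD74 down to a short plug, SLA-DM exchanges the plug for a peptide, and SLA-DO restrains SLA-DM. CIITA switches the whole set of genes on together with DNA-binding factors at their promoters, and interferon gamma is the best known inducer of CIITA in cells that are not professional antigen presenting cells. In the nose, class II is carried by dendritic cells, macrophages and B cells of the mucosa and can be induced on epithelial cells.

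The question was whether class II genes differed between androstenone-treated and control OE. No member passed the cutoff the study used, an unadjusted p below 0.05 with at least a 2-fold change, in either direction. Of all 21318 genes tested, 2.04% were called higher and 4.38% lower at that cutoff with edgeR's quasi-likelihood test. CTSS was 1.77-fold higher in the androstenone treatment group and was the 1 member whose libraries did not overlap between the groups. CD74, SLA-DRA, SLA-DQB1, SLA-DMA, SLA-DMB and SLA-DOA had fitted levels 1.34 to 1.49 times those of the control group, but their groups overlapped, and CIITA had the same mean in both groups. Among members of the wider pathway, IFNG, the gene of interferon gamma itself, was called higher.

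Summed counts were 4178330 in control library 1 and 81580146 to 100685566 in the other 7 libraries. The study lists clean reads for control 1 within the range of its other libraries, so the low total need not mean shallow sequencing. Why it is low was not tested. The lowest count of a member was 120 in control 1 and 1258 elsewhere. On the counts as deposited, counting error was thus largest in control 1 for every member. Control 4 stood apart in tissue makeup, since the summed level of 8 bone genes was 60209 TPM there and 687 to 4261 TPM in the other libraries. Levels are given as TPM, which is scaled for transcript length and total and compares genes within a library, or as CPM, the count scaled to the library total and its TMM factor, which compares 1 gene between libraries. Of the olfactory neuron markers searched, OMP matched no name, RTP2 had no counts, and GNG13 and RTP1 reached at most 0.205 and 0.109 CPM. CNGA4, CNGA2, GNAL and ADCY3 averaged 0.846, 4.4, 10.9 and 31.1 CPM, while STOML3 and ANO2 averaged 121 and 156 CPM. The cilia regulator FOXJ1 averaged 423 CPM.

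In TPM, CD74 led the set. Over the 8 libraries it averaged 1368 TPM and ranked between 78th and 160th of all genes. Next came SLA-DQB1 with a mean of 511 TPM, CTSS with 221, SLA-DRA with 155 and SLA-DMA with 135 TPM. SLA-DMB, CIITA and SLA-DOA formed the low end at 33.8, 24.7 and 23.8 TPM. Ranges of neighbours in this order overlapped: CTSS ran from 135 to 349 TPM, SLA-DRA from 89.6 to 225 TPM and SLA-DMA from 66.2 to 180 TPM, and CIITA and SLA-DOA cannot be ordered. CD74 stood clear of the next gene in every library and made up 53.46% to 58.45% of the summed TPM of the members. Both chains of SLA-DM serve in a pair, yet SLA-DMA was listed 3.5 to 4.61 times as high as SLA-DMB in TPM. The order in TPM depends on the transcript lengths used. In CPM, which is not scaled for length, SLA-DMB averaged 88.3 against 70.5 for SLA-DMA in controls, and 119 against 94.4 after androstenone. SLA-DRA averaged 505 CPM in controls and 753 CPM after androstenone, above SLA-DQB1 at 386 and 521 CPM and CTSS at 138 and 244 CPM.

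CD74, the invariant chain (chr2:151402210-151409924, Sscrofa11.1), measured 1218, 1363, 615 and 743 CPM in control libraries 1 to 4. In androstenone libraries 1 to 4 it measured 1354, 994, 1566 and 1693 CPM. Controls 3 and 4 were lowest, controls 1 and 2 lay inside the androstenone range, and the groups overlapped. The means of the groups were 985 ± 362 and 1402 ± 306 CPM (SD, n = 4 each). The log2 fold change was 0.51 ± 0.32 (SE), with an edgeR p of 0.15, an adjusted p of 0.552 and an exact permutation p of 0.171 over libraries.

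CIITA, the transactivator (chr3:32171706-32230775), measured 122, 145, 56.4 and 65.7 CPM in controls 1 to 4 and 102, 78.1, 75.9 and 131 CPM in the androstenone libraries. The highest and the lowest value were both in the control group, and all 4 androstenone libraries lay between them. Means were 97.2 ± 42.9 and 96.9 ± 25.7 CPM (SD, n = 4 each). The fitted log2 fold change of CIITA was -0.004 ± 0.34 (SE), with an edgeR p of 0.991 and an exact permutation p of 0.857. CIITA was the 1 member whose fitted change was not above 0, and its sign depended on the fit.

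The 5 SLA members found lie between positions 24825037 and 25182665 of chromosome 7. SLA-DRA, the alpha chain of the DR molecule (chr7:24825037-24830650), measured 650, 606, 340 and 424 CPM in the controls and 822, 582, 697 and 913 CPM after androstenone. Androstenone libraries 1, 3 and 4 lay above every control and library 2 did not. Its log2 fold change was 0.58 ± 0.27 (SE, n = 4 each), with an edgeR p of 0.0636, an adjusted p of 0.458 and an exact permutation p of 0.0857. SLA-DQB1, the beta chain of the DQ molecule (chr7:24969034-24977238), measured 541, 569, 181 and 251 CPM in the controls and 488, 337, 522 and 736 CPM after androstenone. Of the members it varied most, 3.23-fold between control libraries in TPM, and 1 androstenone library exceeded all controls. The log2 fold change of SLA-DQB1 was 0.43 ± 0.42 (SE, n = 4 each), with an edgeR p of 0.325 and an exact permutation p of 0.314. Class II chain genes differ in sequence from animal to animal, and how far reads matched the single reference in each sow was not tested. Reads of near-identical chains can be split between them in counting, and this was not tested either.

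SLA-DMA (chr7:25133494-25137928), the alpha chain of the peptide exchanger, measured 90.4, 99.1, 45.3 and 47.2 CPM in controls and 106, 83.8, 82.9 and 105 CPM after androstenone. SLA-DMB (chr7:25119278-25125089), its partner, measured 109, 112, 64.6 and 67.9 CPM in controls and 123, 91.6, 114 and 148 CPM after androstenone. In both genes controls 3 and 4 sat below all other libraries, while controls 1 and 2 reached the androstenone range. Log2 fold changes were 0.42 ± 0.29 for SLA-DMA and 0.44 ± 0.25 for SLA-DMB (SE, n = 4 each), with edgeR p-values of 0.178 and 0.113 and exact permutation p-values of 0.286 and 0.143. SLA-DOA (chr7:25178866-25182665), the alpha chain of the modulator SLA-DO, measured 24.7, 35.8, 18.4 and 18.9 CPM in controls and 42, 28.8, 25.2 and 44.7 CPM after androstenone. Androstenone libraries 1 and 4 lay above all controls. The log2 fold change of SLA-DOA was 0.53 ± 0.29 (SE, n = 4 each), with an edgeR p of 0.0997 and an exact permutation p of 0.114. SLA-DOB, the beta chain that pairs with it (chr7:25030435-25038196), had a log2 fold change of 0.01 ± 0.38 and means of 23.1 ± 9.49 and 23.2 ± 10.3 CPM (SD, n = 4 each).

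CTSS, the lysosomal cysteine protease cathepsin S (chr4:98415273-98442952), measured 169, 138, 107 and 137 CPM in controls 1 to 4. In androstenone libraries 1 to 4 it measured 220, 196, 261 and 299 CPM. Every androstenone library exceeded every control, as was the case for 3.89% of all genes tested. Means were 138 ± 25.6 and 244 ± 45.4 CPM (SD, n = 4 each). The log2 fold change of CTSS was 0.83 ± 0.21 (SE), with an unadjusted edgeR p of 0.00378, an adjusted p of 0.393 and an exact two-sided permutation p of 0.0286 over libraries. At an unadjusted p below 0.05 of any size, 5.09% of genes were higher, and CTSS was 1 of 8 members tested. The permutation p is the smallest that the 70 assignments of 4 against 4 libraries can give, and the permutation p-values of the 8 members are not adjusted for one another. These assignments treat the 2 libraries of a sow as independent, so the permutation p does not measure the spread between sows.

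**Figure D1:**
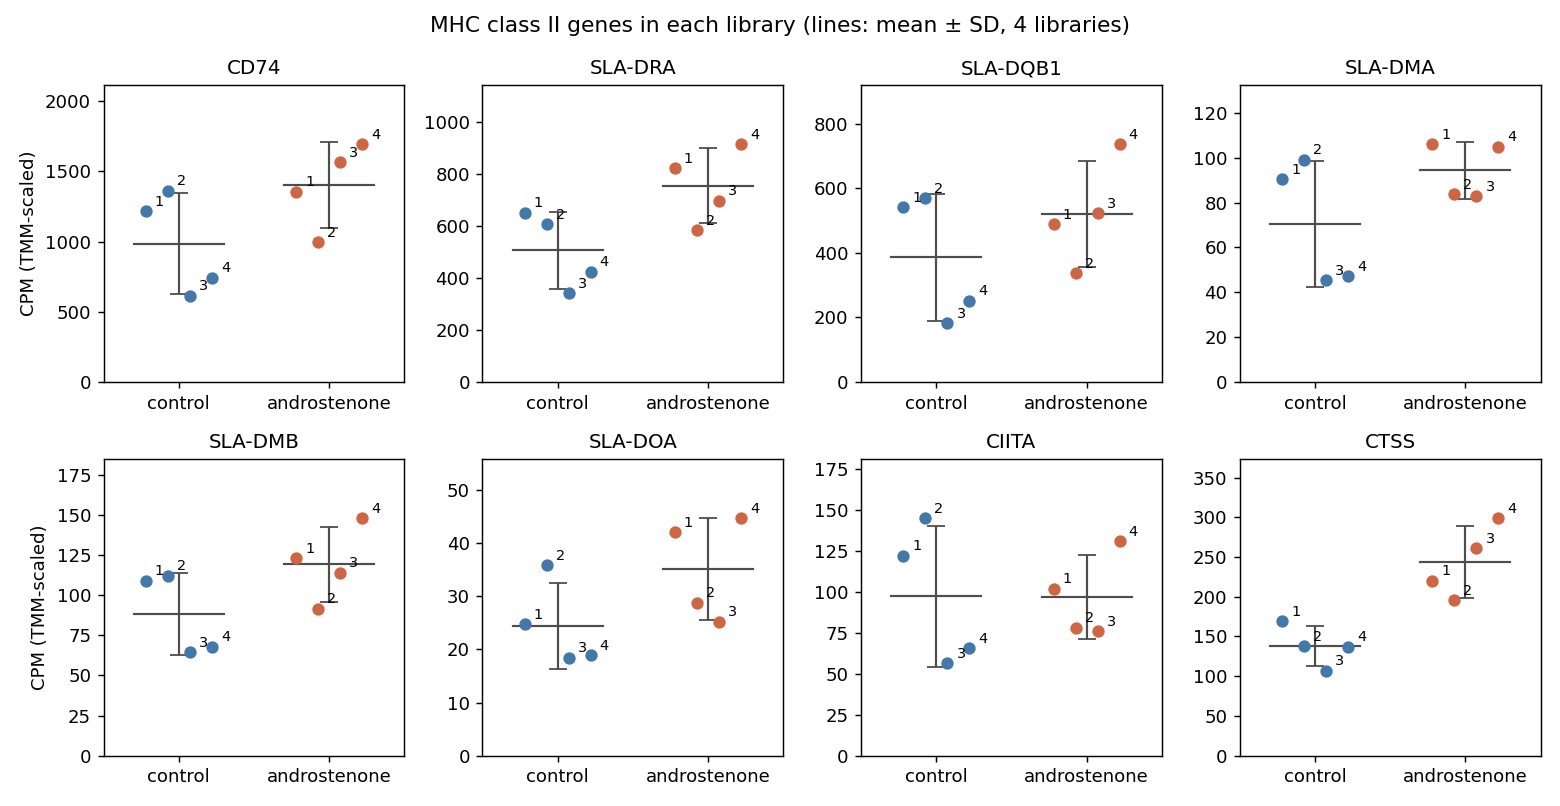
Level of each member (CPM, linear axis from 0) in the 4 control and 4 androstenone libraries, numbered 1 to 4, with lines for the mean ± SD. CTSS alone separates the groups, at 107 to 169 against 196 to 299 CPM, while in the other panels control 2, and in all but SLA-DOA also control 1, reaches the lowest androstenone library or higher and controls 3 and 4 lie low.

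DESeq2 gave CTSS a log2 fold change of 0.81 with an adjusted p of 0.0178, where 1.62% of the genes given an adjusted p were higher at an adjusted p below 0.05. Over 28 alternative fits the adjusted p of CTSS ran from 0.0178 to 0.999. The unadjusted p stayed between 0.000328 and 0.0442 in all of them, and between 0.00369 and 0.0122 when 1 library was left out. With libraries added up into sows in 9 possible ways, the unadjusted edgeR p of CTSS ran from 0.00751 to 0.0442. With edgeR's quasi-likelihood test and with limma voom no gene of the series passed an adjusted p below 0.05, and 2415 and 2006 genes passed unadjusted. The likelihood ratio test gave 200 genes and the exact test 157 genes past an adjusted p below 0.05, with no member among them in either.

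Across the 8 members the median log2 fold change was 0.47, against -0.02 over all genes tested, and 7 of 8 lay above 0. The summed TPM of the members was 2862, 3087, 1344 and 1309 in controls 1 to 4 and 2595, 2023, 2936 and 3621 in androstenone libraries 1 to 4. The control group thus held a high pair and a low pair of libraries, and the androstenone libraries spanned the high pair. TPM compares genes within a library, and bone transcripts take a large part of it in control 4. In log2 CPM, centred on the mean of each member and averaged, controls 3 and 4 were also lowest, at -0.80 and -0.58, but in the other order. Members are not independent of one another, and the summed TPM is given with no test. In bulk tissue, fewer class II-bearing cells and less class II RNA per cell cannot be told apart.

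Members varied together over the libraries. Leaving CTSS out, Pearson's r between the log2 CPM of 2 members was 0.73 to 0.97 (median 0.89, 21 pairs, n = 8 libraries). SLA-DMB tracked CD74, SLA-DRA and SLA-DQB1 with r = 0.97 each. CTSS followed less closely, at 0.38 with CIITA to 0.89 with SLA-DRA. These values are descriptions, since the points share 4 sows, a low count total in control 1 and the differences in tissue makeup named above.

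Ratios within a library cancel its scaling and set members against one another. CIITA measured 2.2, 2.33, 2.01 and 1.94 TPM per 100 TPM of CD74 in controls 1 to 4, and 1.66, 1.72, 1.06 and 1.7 in androstenone libraries 1 to 4. Every androstenone library lay below every control. Per 100 TPM of SLA-DRA, CIITA ran from 15.8 to 24.3 in controls and reached at most 14.6 after androstenone, again with no overlap. These ratios of CIITA were singled out after their values were seen and carry no test. The groups overlapped in CTSS per TPM of CD74, at 0.104 to 0.188 in controls and 0.166 to 0.202 after androstenone. Against PTPRC, the pan-leukocyte surface gene CD45, CIITA did overlap, at 0.403 to 0.5 in controls and 0.339 to 0.637 after androstenone. CD74 per TPM of PTPRC ran from 18 to 25.7 in controls and measured 37.2, 36.9, 46.7 and 20 after androstenone, so that androstenone library 4 fell inside the control range.

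The ratio of SLA-DMA to SLA-DMB in TPM followed library number more than group. It was 4.18 and 4.46 in controls 1 and 2 and 4.33 and 4.61 in androstenone 1 and 2, but 3.53, 3.5, 3.65 and 3.56 in libraries 3 and 4 of the same groups. SLA-DQB1 per TPM of SLA-DRA was 3.77, 4.26, 2.42 and 2.69 in the controls and 2.69, 2.63, 3.4 and 3.66 after androstenone. Here too libraries 1 and 2 resembled each other within a group, as did libraries 3 and 4, while the order of the pairs was opposite in the groups. Not every ratio paired in this way. SLA-DOA per TPM of SLA-DMA was 0.133 and 0.176 in controls 1 and 2. In androstenone 3 and 4 it was 0.148 and 0.208, the lowest and the highest value of that group. Whether libraries 1 and 2, or 3 and 4, of a group are the left and right OE of 1 sow is not given by the labels.

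**Figure D2:**
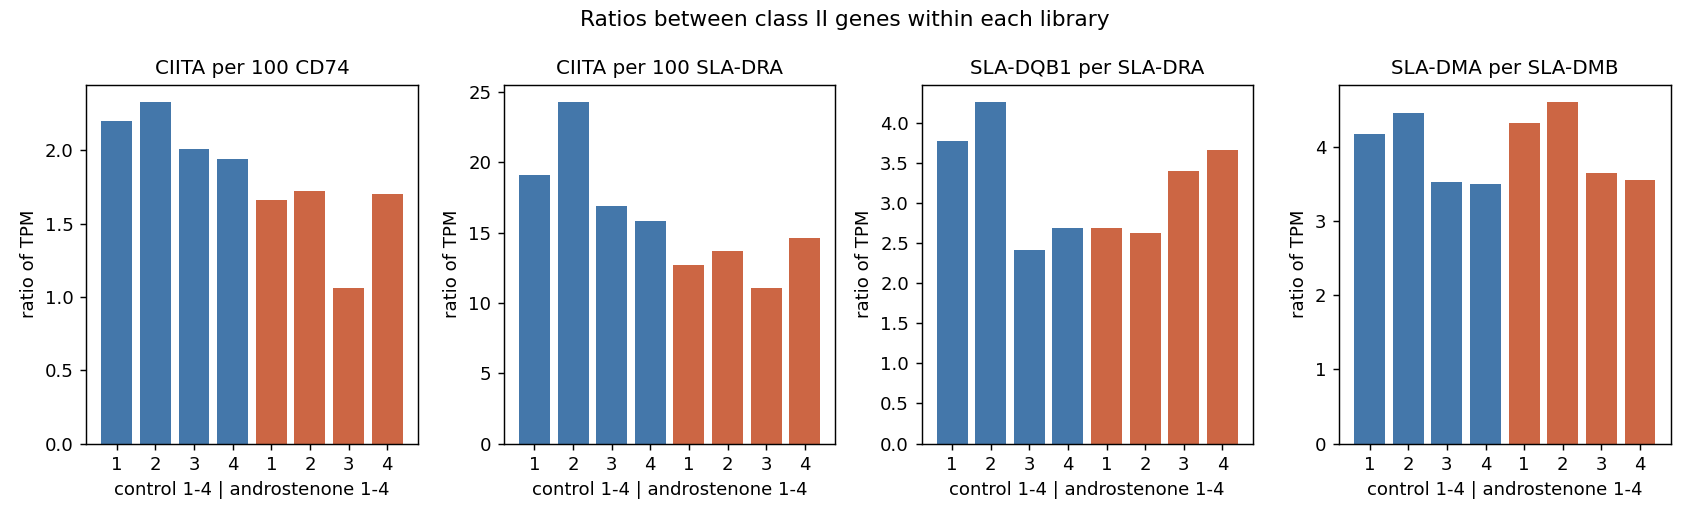
Ratios of TPM between class II genes in each library, as bars from 0, with controls 1 to 4 on the left in blue and androstenone 1 to 4 on the right in orange. CIITA per 100 TPM of CD74 is 1.94 to 2.33 in controls and 1.06 to 1.72 after androstenone, and SLA-DMA per TPM of SLA-DMB steps from above 4 in libraries 1 and 2 to below 4 in libraries 3 and 4 of both groups.

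Of a list of 44 further genes of the pathway, 33 were found. The list held 11 further class II chains, of which 1 was found, SLA-DOB. No DR beta or DQ alpha chain matched a name, so the DR and DQ molecules were each measured through 1 chain only. Of the 33 genes found, 1 was called higher (IFNG) and none lower. At an unadjusted p below 0.05 of any size, 5 were higher and 1 lower in edgeR. Over all genes, 2.04% were called higher and 4.38% lower, so 1 call of 33 is near the background. At that p of any size, 5.09% of all genes were higher and 6.24% lower, so 5 of 33 higher lies above the share and 1 of 33 lower below it. These 33 genes were not tested as a set. Their median log2 fold change was 0.11. The list was drawn up with earlier results of these data known.

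The interferon gamma input held the call. IFNG measured 1.85, 0.753, 0.574 and 0.241 CPM in controls 1 to 4 and 3.34, 2.5, 1.43 and 1.71 CPM after androstenone. Androstenone 3 and 4 lay below control 1, whose value rested on 9 counts with an exact 95% Poisson interval of 0.845 to 3.51 CPM for counting error alone. IFNG was 3.06-fold higher, with a log2 fold change of 1.61 ± 0.59 (SE, n = 4 each), an edgeR p of 0.0246, an adjusted p of 0.416 and an exact permutation p of 0.0857. The call was lost without control 2, control 3 or androstenone 1, where the edgeR p of IFNG was 0.0538, 0.0592 and 0.0681, and with library size as the only scaling, where it was 0.051. IRF1, a transcription factor that interferon gamma induces and that acts on the CIITA gene, measured 152, 103, 143 and 70.1 CPM in controls against 259, 224, 215 and 170 CPM after androstenone, with no overlap. Its log2 fold change of 0.89 ± 0.27 stayed under the 2-fold cutoff, with an edgeR p of 0.00994, an adjusted p of 0.401 and an exact permutation p of 0.0286, the smallest possible. Of all genes tested, 3.89% were likewise higher with no overlap. With libraries added up into sows in 9 possible ways, the edgeR p of IRF1 ran from 0.00389 to 0.0887.

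Among the promoter factors, RFX5, a subunit of the RFX complex that binds class II promoters, measured 52, 61.3, 48 and 36.4 CPM in controls and 80.7, 77.8, 62.2 and 76.7 CPM after androstenone. The groups did not overlap, although control 2 and androstenone 3 were close. Of all genes tested, 3.89% had every androstenone library above every control, and 562 of 21318 had every one below. RFX5 had a log2 fold change of 0.59 ± 0.19, with an edgeR p of 0.013, an adjusted p of 0.405 and an exact permutation p of 0.0286, the smallest possible. With libraries added up into sows in 9 possible ways, the edgeR p of RFX5 ran from 0.0293 to 0.152 and was below 0.05 in 4 of them. NFYA, a subunit of the CCAAT-binding factor NF-Y, went the other way, from 35.3 to 41.3 CPM in controls to 26.6 to 32.7 CPM after androstenone, with a log2 fold change of -0.41 ± 0.14, an edgeR p of 0.0207 and an exact permutation p of 0.0286. RFXANK, NFYB, NFYC and CREB1, the remaining factors found, had log2 fold changes between -0.18 and 0.08 with overlapping groups.

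In lysosomal processing, 7 of 10 genes lay above 0 and 3 below, and 1 had an unadjusted p below 0.05, which is near the share over all genes. This was SPPL2A, the membrane protease that clears the last fragment of CD74, with a log2 fold change of 0.44 ± 0.19, an edgeR p of 0.0498 and an exact permutation p of 0.0571. LGMN, the asparagine endopeptidase, had 0.57 ± 0.26 with an edgeR p of 0.0551 and an exact permutation p of 0.0571. CTSF, the protease cathepsin F, had a change of like size in the other direction, -0.56 ± 0.26, with an edgeR p of 0.0572 and an exact permutation p of 0.114. IFI30, a thiol reductase of antigen processing that interferon gamma induces, had 0.32 ± 0.35 with an edgeR p of 0.387 and an exact permutation p of 0.429. In surface turnover, CD82, a tetraspanin found with class II in loading compartments, had 0.45 ± 0.18 with no overlap, an edgeR p of 0.04 and an exact permutation p of 0.0286. Of all genes tested, 3.89% were likewise higher with no overlap. MARCHF1, the ligase that marks class II for removal from the surface, had 0.11 ± 0.47. CD4, the co-receptor on T cells that binds class II, had 0.28 ± 0.63, and none of the 5 T cell partner and costimulation genes had an unadjusted p below 0.05.

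**Figure D3:**
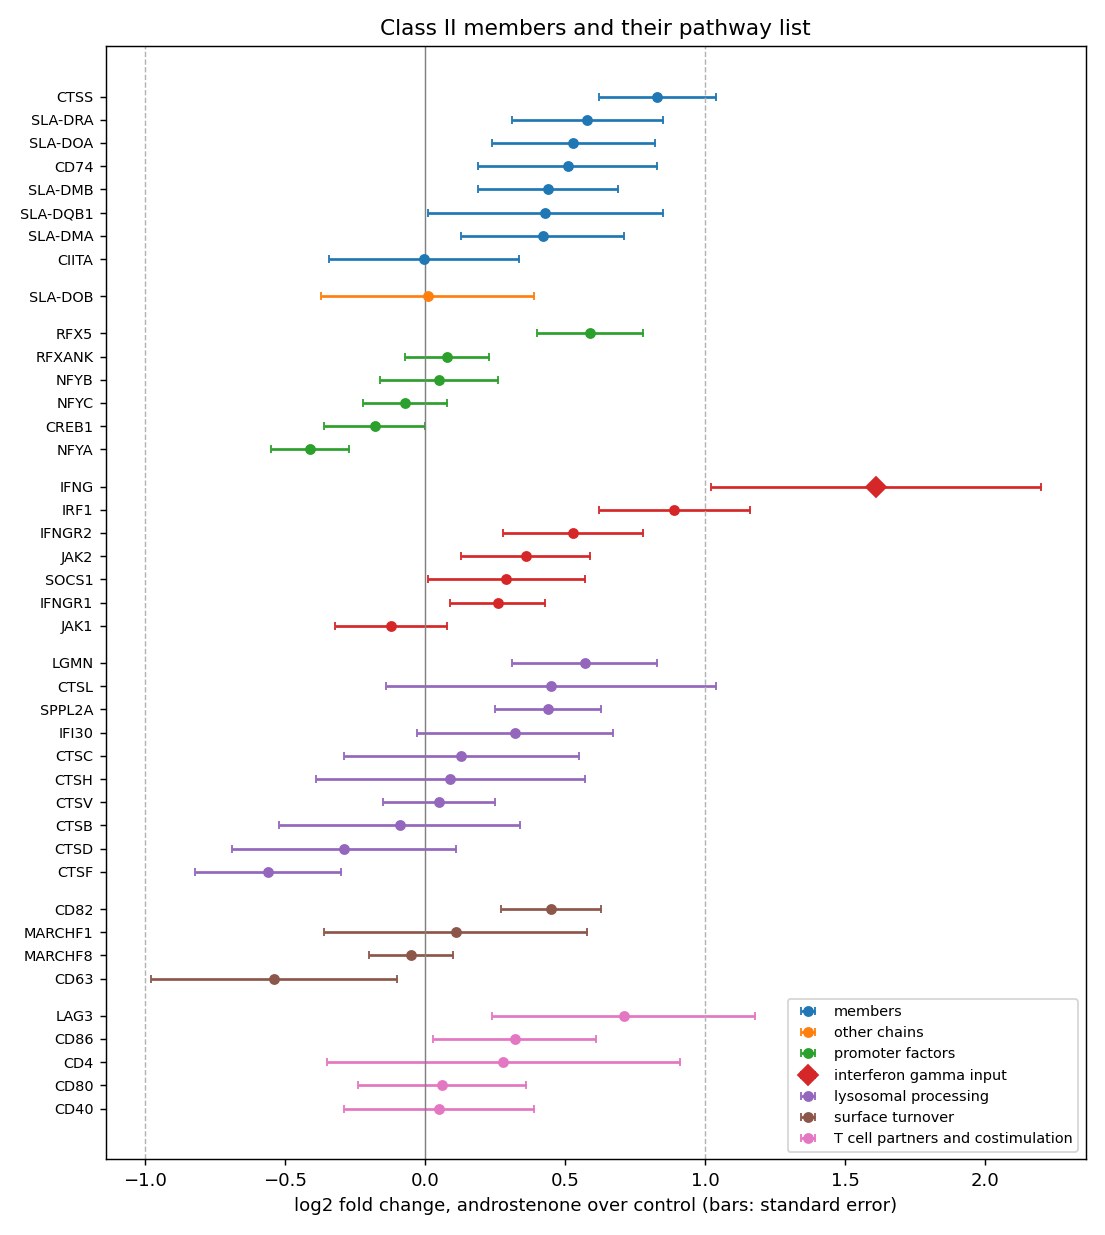
Log2 fold change of androstenone over control with its standard error (edgeR, 4 libraries per group) for the 8 members and the 33 pathway genes found, grouped by role in colour, with dashed lines at a 2-fold change. The diamond marks IFNG at 1.61, the 1 gene called, and the members run from -0.004 for CIITA to 0.83 for CTSS.

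Levels of class II genes were set beside marker lists of the cell types that the tissue can hold. The mean centred log2 CPM of the members was lowest in controls 3 and 4, at -0.80 and -0.58, and highest in androstenone 4 at 0.61. T cell markers were also lowest in controls 3 and 4, at -0.78 and -1.15, and their list pattern had r = 0.91 with that of the members (7 genes, n = 8 libraries). The plasma cell list followed with r = 0.86, the list of all leukocytes with 0.72, dendritic cells with 0.64, macrophages with 0.48 and B cells with 0.47. Olfactory neuron markers had r = -0.04, ciliated cell markers -0.38 and bone markers -0.62. None of these correlations is tested.

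Of the markers found in the files, RTP2 alone had no counts in any library. Summed TPM of 9 dendritic cell markers was 83.3 to 166 in controls and 84.9 to 198 after androstenone, and that of 9 B cell markers was 123 to 907 and 156 to 842. For 11 macrophage markers the sum was 330 to 945 and 351 to 1065 TPM, for 7 T cell markers 43.7 to 189 and 101 to 177 TPM, and for 5 plasma cell markers 1511 to 11707 and 6657 to 12968 TPM. Ranges of the groups overlapped in each list. At the study's cutoff no gene of the dendritic cell, macrophage, B cell, T cell, leukocyte, olfactory neuron or ciliated cell lists was called, 1 plasma cell gene was called higher and all 8 bone genes were called lower, beside 2.04% higher and 4.38% lower over all genes. Each of the 8 bone genes overlapped between the groups. Their summed TPM was 60209 in control 4 and 1439 to 4261 in the other controls, against 687 to 1946 after androstenone. The part of the listed cell types in the level of the members was not tested. Without control 4, the log2 fold changes ran from -0.15 for CIITA to 0.82 for CTSS, that of CD74 was 0.39 and that of SLA-DRA 0.50, and no member was called.

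**Figure D4:**
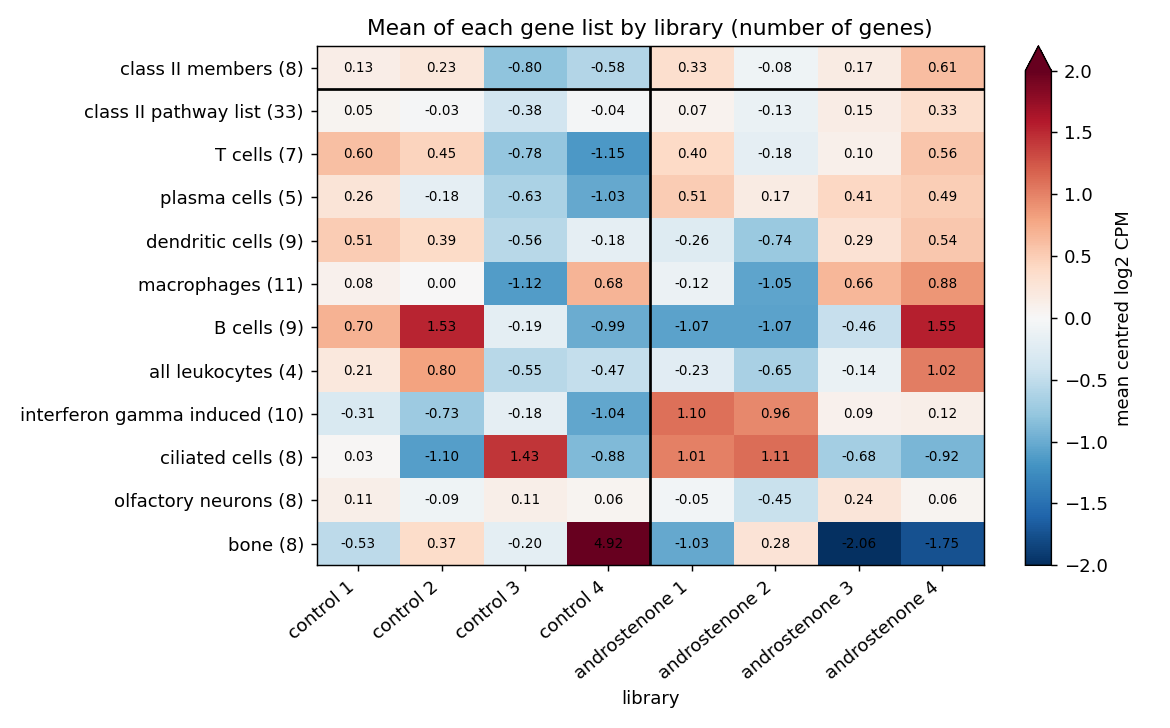
Mean centred log2 CPM of the members, the pathway list and the marker lists (number of genes in brackets) in each library, on a colour scale from -2 to 2, with the value written in each cell. Members are low in controls 3 and 4 (-0.80 and -0.58), as are T and plasma cell markers, while bone markers reach 4.92 in control 4, beyond the scale.

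Outside the members, the genes whose log2 CPM was most like their mean pattern were TAGAP (r = 0.994), SRGN (0.981), CXCL9 (0.980), NUBP1 (0.976), CARHSP1 (0.963), COTL1 (0.957), TAF1C (0.954), ITGAL (0.953), LCP2 (0.952) and CEL (0.952), over n = 8 libraries and 18339 genes. ITGAL is an integrin chain of leukocytes, LCP2 an adaptor of T cell receptor signalling and CXCL9 a chemokine that interferon gamma induces. What the other genes do is not described here. CEL was low, with means of 1.2 CPM in controls and 1.88 CPM after androstenone. NUBP1 lies 80999 bases from CIITA on chromosome 3. In all, 72 genes had r above 0.9. None of the 10 had an unadjusted p below 0.05 in edgeR, and the lowest was 0.0798 for LCP2.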

How the data were processed

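Reads of the 8 OE libraries were cleaned by the authors with fastp 0.23.1 and quantified with Kallisto 0.48.0 against the cDNA set of Ensembl release 108 (Sscrofa11.1), per the submitters' processing notes and the study's methods. The authors deposited an estimated count per gene and library, not normalized, and a TPM value, scaled for transcript length. The sources used here do not give how gene values were made from transcript values.

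Estimated counts were rounded, and the 21318 genes with a count in any library were tested with the quasi-likelihood test of edgeR 4.0.16 in R 4.3.3, with TMM factors and the group as sole term. Calls needed an unadjusted p below 0.05 and a log2 fold change of 1 or more in size, the cutoff the study states, and Benjamini-Hochberg values cover all genes tested. Single genes were also compared with exact two-sided permutation tests of mean log2 CPM (scipy 1.17.1), not adjusted for their number. Alternatives used limma 3.58.1 and DESeq2 1.42.0. The test script was tested on simulated data. No pair of libraries within a group agreed within sampling noise (chi-square per degree of freedom of at least 42.3).

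Symbols were matched for 15527 of 22516 identifiers, and coordinates are RefSeq's. The members, lists and tests were chosen with earlier results of these data known. Genes named are all members, the pathway genes called, the class II chains and promoter factors found, at most 8 other pathway genes, and the 10 genes with a symbol most like the members in Pearson's r of log2 CPM (prior count 2) among genes that pass filterByExpr. FOXJ1, PTPRC and the olfactory neuron genes named are markers. The genes named from the interferon gamma induced list are those called and CXCL9. Other genes of the lists are given by counts, and 1 gene of the planned pathway list was left out of the list and is not reported here.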

Additional observations from a re-analysis of the deposited data

How the results depend on the processing

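Of the 23 alternatives to the count of members called, 22 gave 0 higher and all 23 gave 0 lower, and leaving out any 1 library gave 0 in both directions. When libraries were added up into sows in each of 9 possible ways, the highest count was 1 member higher, CTSS, whose log2 fold change was then 1.00. The count of pathway genes called higher, 1 in the fit reported, was 2 with limma voom (IFNG and IRF1), 0 with library size only, up to 3 with libraries added up into sows (IFNG, IRF1 and LAG3 over the 9 ways), 2 with libraries 1 and 2 and libraries 3 and 4 summed (a pairing chosen after seeing the data), and 0 to 2 with 1 library left out: 0 without control 2 or androstenone 1, 2 without control 1 (IFNG and IRF1), and 1 without control 3, where it was IRF1 and not IFNG. No pathway gene was called lower under any alternative. The sign of CIITA turned with limma voom (0.14), in the highest per-sow pairing (0.23) and with 1 library left out (-0.19 to 0.25), and the cause was not tested. The fitted change of the other 7 members stayed above 0 under all 22 alternatives. With 1 library left out, SLA-DRA ran from 0.43 to 0.72 with edgeR p-values of 0.0403 to 0.156, lowest without control 1, and SLA-DOA from 0.39 to 0.77 with edgeR p-values of 0.0202 to 0.237, lowest without control 2.

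The replicate block, with the number shared across groups, gave CIITA a log2 fold change of 0.07 and left the counts of members and pathway genes called as they were. Same-numbered libraries of the groups come from different sows, and their deviations had r of -0.04, -0.5, -0.6 and 0.17, so the numbers do not pair them. Precision was limited by 2 sows per group and by the low count total of control 1.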

Other observations

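Genes that interferon gamma induces in many cell types had another library pattern than the class II members, with r = 0.37 over the 8 libraries. Of a list of 10, 5 were called higher (CXCL10, CXCL11, GBP1, PSMB9 and TAP1) and none lower, beside 2.04% higher and 4.38% lower over all genes tested, with a median log2 fold change of 1.18 over the list. The list was chosen with earlier results of these data known. The study found its upregulated genes enriched in the response to type I interferon, and which interferon these genes followed was not tested here. Its mean centred log2 CPM was 1.10 and 0.96 in androstenone 1 and 2, 0.09 and 0.12 in androstenone 3 and 4, and -1.04 to -0.18 in the controls, whereas the members were highest in androstenone 4. TAP1, a subunit of the peptide transporter of class I presentation, measured 230, 172, 303 and 140 CPM in controls 1 to 4 and 592, 594, 401 and 333 CPM in androstenone 1 to 4, a log2 fold change of 1.19 ± 0.31 (SE, n = 4 each) with an adjusted edgeR p of 0.393 and an exact permutation p of 0.0286. PSMB9, a subunit of the immunoproteasome that cuts peptides for class I, had 1.23 ± 0.35 with no overlap and an exact permutation p of 0.0286. Of all genes tested, 3.89% were likewise higher with no overlap. CXCL9, the member of that list most like the class II genes, measured 69.4, 53.9, 14.2 and 19 CPM in controls and 77.3, 34.5, 67 and 99.9 CPM after androstenone, with groups that overlapped. Whether the class I and class II genes differed in their response was not tested.

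Within a group, libraries 1 and 2 and libraries 3 and 4 were not equally alike. Over all genes, the chi-square per degree of freedom between counts was 112 for androstenone 1 and 2 and 117 for androstenone 3 and 4, against 738 to 1119 for the other pairs of that group. In the control group it was 3025 for controls 3 and 4, the highest value, and 1406 and 1579 for control 2 with controls 3 and 4. Control 1, whose low count total lowers the value, gave 42.3, 110 and 280 with controls 2, 3 and 4.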
